A study of Mus musculus with 6 samples.

Results

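The genes described here encode the zona pellucida glycoproteins ZP1, ZP2 and ZP3 and the oocyte-secreted proteins OOSP1, OOSP2 and OOSP3. They were chosen by name, and all 6 were found among the 53700 gene rows of each count table. The samples were pools of 10 germinal vesicle (GV) oocytes of mice on a C57BL/6N background, with 3 libraries from Zar1 knockout and 3 from wild-type animals. Such oocytes have not yet resumed meiosis and still hold an intact nucleus. PolyA RNA was sequenced. Although labelled as biological replicates, the pools are not tied to animals, so a p-value here speaks of variation among pools. The sources used here give neither the part of Zar1 that was removed nor the age of the mice.

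The zona pellucida is the extracellular coat of the egg. In the mouse it is made of long filaments of ZP2 and ZP3 that are crosslinked by ZP1, and all of these proteins are secreted by the growing oocyte. Each carries a ZP domain, through which the subunits polymerise, and a membrane anchor that is cut off before assembly. ZP2 holds the region that sperm bind, and its cleavage by ovastacin, a protease released from cortical granules after fertilisation, ends sperm binding. The OOSP proteins are small secreted proteins of the oocyte, related to the placental protein PLAC1, and their genes lie side by side. Transcription of the zona genes depends on FIGLA, a basic helix-loop-helix factor that binds E-boxes, whose general form is CANNTG. ZAR1 is an RNA-binding protein of oocytes, and the series concerns the storage of maternal mRNA near mitochondria. The comparison asks how mRNA levels differed in oocytes without Zar1.

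Sequence before the start site was at hand for 3 of the 6 genes, and it is shown because E-boxes are the sites through which zona genes are known to be activated. The 250 bases before the transcription start are from RefSeq on GRCm38.p6, in the direction of transcription, with each CANNTG match in capitals. A CANNTG match reads as CANNTG on both strands. The Zp3 stretch is chr5:135979855-135980104 on the plus strand, that of Oosp1 is chr19:11691052-11691301 on the minus strand, and that of Oosp2 is chr19:11660560-11660809 on the minus strand.
Zp3: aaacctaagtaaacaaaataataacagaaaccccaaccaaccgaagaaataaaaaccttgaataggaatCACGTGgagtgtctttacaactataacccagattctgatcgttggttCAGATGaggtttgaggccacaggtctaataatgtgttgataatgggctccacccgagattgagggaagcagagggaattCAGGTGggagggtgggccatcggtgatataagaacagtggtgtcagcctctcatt
Oosp1: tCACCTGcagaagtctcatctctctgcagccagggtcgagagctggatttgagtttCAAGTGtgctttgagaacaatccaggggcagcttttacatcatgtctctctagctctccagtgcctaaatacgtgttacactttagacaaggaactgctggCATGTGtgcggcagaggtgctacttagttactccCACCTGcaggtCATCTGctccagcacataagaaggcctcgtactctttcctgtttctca
Oosp2: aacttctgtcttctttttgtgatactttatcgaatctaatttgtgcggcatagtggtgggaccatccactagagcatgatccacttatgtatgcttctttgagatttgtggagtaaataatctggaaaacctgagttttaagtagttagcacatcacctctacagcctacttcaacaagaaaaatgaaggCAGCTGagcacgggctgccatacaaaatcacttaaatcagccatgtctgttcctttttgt

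Zp3 had 3 matches, CACGTG at positions -181 to -176 from the start, CAGATG at -134 to -129 and CAGGTG at -55 to -50. It also had the letters TATAA at -29 to -25, the usual place of a TATA box, and again at -160 to -156. Oosp1 had 5 CANNTG matches, the last ones CACCTG at -59 to -54 and CATCTG at -48 to -43, and Oosp2 had 1, CAGCTG at -60 to -55. Among 32851 stretches of the same length from 27025 genes, 66.2% held at least 1 match, 12.2% held 3 or more and 1.15% held 5 or more. TATAA, searched on both strands, was in 22.8% of them. The letters TAATTA and TAATTG, which the homeobox factor NOBOX can bind, were in none of these 3 stretches and in 4.84% and 7.17% of all stretches. These matches describe letters and not binding.

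Zar1 checked the labels. Its counts were 69, 96 and 226 in the knockout libraries, against 15245, 13612 and 12810 in the wild-type libraries. Library totals ranged from 32126555 to 39148833 gene counts. Levels below are CPM, a gene's counts scaled to its library's total with TMM factors, so a rise or fall is relative to the rest of the mRNA. They count mRNA recovered as PolyA RNA. A difference in poly(A) tail length was not measured and cannot be told apart from one in mRNA amount. A pool with less mRNA in each oocyte cannot be told apart from one in which fewer oocytes gave RNA. All 8 oocyte markers were measured, with a summed level between 12996 and 13496 CPM in knockout and between 13265 and 14551 CPM in wild type. The 19 markers of granulosa, cumulus and theca cells summed to between 49.9 and 62.6 CPM in knockout and between 57.0 and 64.6 CPM in wild type. Cyp19a1 alone gave 35.5 to 50.9 CPM of that sum in knockout and 42.4 to 53.7 CPM in wild type, while Tnfaip6 and Insl3 had 0 counts in every library. Knockout replicates 2 and 3 stood apart from each other on the second principal component (13.3% of the variance, scores -34.9 and 49.6), and the values without each of them are given where they touch a result.

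Zp3, Zp2, Zp1 and Oosp1 rose in Zar1 knockout oocytes, and all 6 log2 fold changes were above 0. Oosp2 and Oosp3 had higher means in knockout but did not pass. The call is an adjusted p of at most 0.05 in edgeR's quasi-likelihood test with Benjamini-Hochberg adjustment over 16473 genes. By that rule 33.4% of all tested genes were called, 14.9% as higher and 18.5% as lower. The median log2 fold change was 0.39 for the 6 genes and 0.00745 for all tested genes, whose quartiles were -0.45 and 0.37. The rises were moderate on that scale, since Zp3, which rose most, stood above 85.6% of tested genes and Oosp3 above 61.1%.

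Zp3, the most abundant zona mRNA, had 71706, 75658 and 71148 counts in the knockout libraries, against 53875, 41815 and 45952 in the wild-type libraries. That was 2051, 2028 and 1945 CPM in knockout and 1337, 1185 and 1415 CPM in wild type. Every knockout library lay above every wild-type library, and the knockout libraries lay close together (coefficient of variation 2.79% in knockout and 8.90% in wild type). The log2 fold change was 0.61 ± 0.08 (SE), a fold of 1.53 (edgeR adjusted p = 0.000465).

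Zp2, which encodes the subunit that sperm bind, had 1881, 1937 and 1641 CPM in the knockout libraries, against 1288, 1090.1 and 1297 CPM in the wild-type libraries. The groups did not overlap, with knockout replicate 3 the lowest of its group. The log2 fold change was 0.57 ± 0.09, a fold of 1.49 (edgeR adjusted p = 0.00178). Without knockout replicate 3 it was 0.64, and without knockout replicate 2 it was 0.53.

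Zp1, the crosslinking subunit, was the least abundant zona mRNA, with 481, 461 and 440.1 CPM in the knockout libraries and 341, 308 and 365 CPM in the wild-type libraries. Again no knockout library reached down to the wild-type range. The log2 fold change was 0.45 ± 0.08, a fold of 1.36 (edgeR adjusted p = 0.00302). All 3 zona calls held without each of the 6 libraries in turn.

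**Figure D1:**
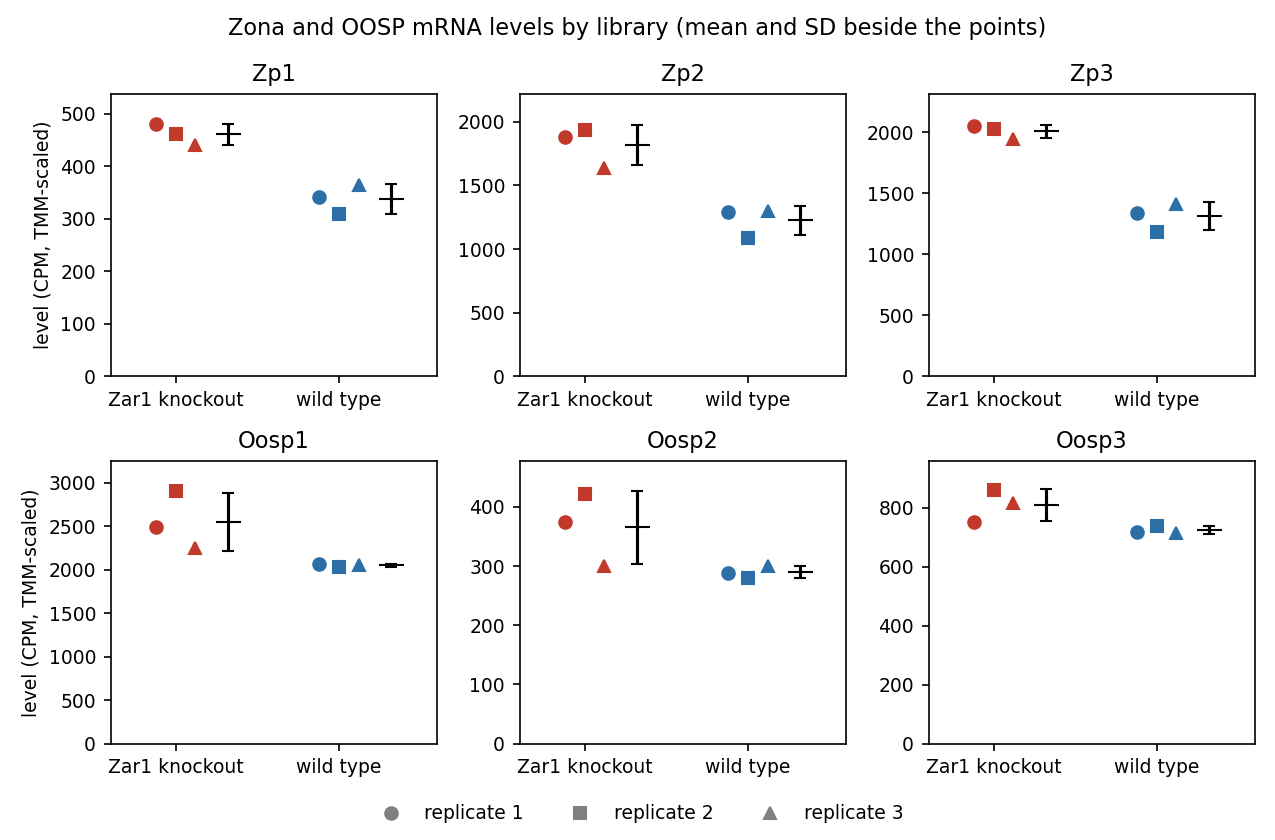
Level of each gene (CPM, y axis from 0) in the 3 Zar1 knockout and 3 wild-type libraries, with marker shape giving the replicate number and the bar beside the points giving mean and SD. The knockout points lie above all wild-type points for every gene but Oosp2, where knockout replicate 3 (300.1 CPM) is below wild-type replicate 3 (300.7 CPM).

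Oosp1 was the most abundant mRNA of the set. It had 87318, 108678 and 82290 counts in the knockout libraries, against 83103, 71656 and 66846 in the wild-type libraries, or 2497, 2913 and 2249 CPM in knockout and 2062, 2031 and 2058 CPM in wild type. The wild-type libraries were almost level (coefficient of variation 0.832%) and the knockout libraries spread widely (13.1%), all of them above wild type. The log2 fold change was 0.32 ± 0.09, a fold of 1.25 (edgeR adjusted p = 0.0263). The call was lost without wild-type replicate 1, 2 or 3 (edgeR adjusted p = 0.0743, 0.0813 and 0.0874), with log2 fold changes between 0.30 and 0.31. Without knockout replicate 2, the highest library, the log2 fold change was 0.22, and without knockout replicate 3, the lowest of the knockouts, it was 0.40.

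Oosp2 had 374, 422 and 300.1 CPM in the knockout libraries, against 288, 279.9 and 300.7 CPM in the wild-type libraries. Knockout replicates 1 and 2 were above all wild-type libraries, and knockout replicate 3 was not. The log2 fold change was 0.34 ± 0.11 and its edgeR adjusted p was 0.0506, just outside the threshold. Without knockout replicate 3 it was 0.46 (edgeR adjusted p = 0.00251), and without knockout replicate 2 it was 0.23 (edgeR adjusted p = 0.125). Whether Oosp2 counts among the genes that rose therefore turned on 1 library and on the scaling, since RLE size factors gave an adjusted p of 0.0398.

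Oosp3 had 753, 861 and 815 CPM in the knockout libraries, against 719, 739 and 714 CPM in the wild-type libraries. The groups did not overlap, although knockout replicate 1 lay close above wild-type replicate 2. The log2 fold change was 0.16 ± 0.07, a fold of 1.12 (edgeR adjusted p = 0.106). Oosp3 was the only gene of the set that overlaps another, the antisense pseudogene Gm19224, which had 0 counts in every library. Groups that did not overlap with knockout on top were seen in 5 of the 6 genes and in 22.2% of all tested genes. In either direction 47.8% of tested genes had groups that did not overlap.

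Transcript composition differed between the zona and OOSP genes, and it moved with the size of the fold changes under another processing. In GENCODE M21 the GC content of the transcripts was 56.1% for Zp3, 55.1% for Zp1 and 47.1% for Zp2, against 42.1% for Oosp2, 42.0% for Oosp1, 38.7% for Oosp3 and a median of 48.95% for tested genes. When each library's trends over GC content and length were removed, the log2 fold change of Zp3 was 0.37 ± 0.07 and that of Zp1 was 0.27 ± 0.08 (edgeR adjusted p = 0.0051 and 0.0297). Under that correction Zp2 became the gene with the largest rise, at 0.64 ± 0.09 (edgeR adjusted p = 0.00108). Oosp3 came to 0.27 ± 0.07 and Oosp2 to 0.38 ± 0.09, and both passed (edgeR adjusted p = 0.0199 and 0.0121). All 6 genes were higher in knockout and passed with this correction, as they did with upper-quartile factors. The part of GC content in the uncorrected values was not tested.

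**Figure D2:**
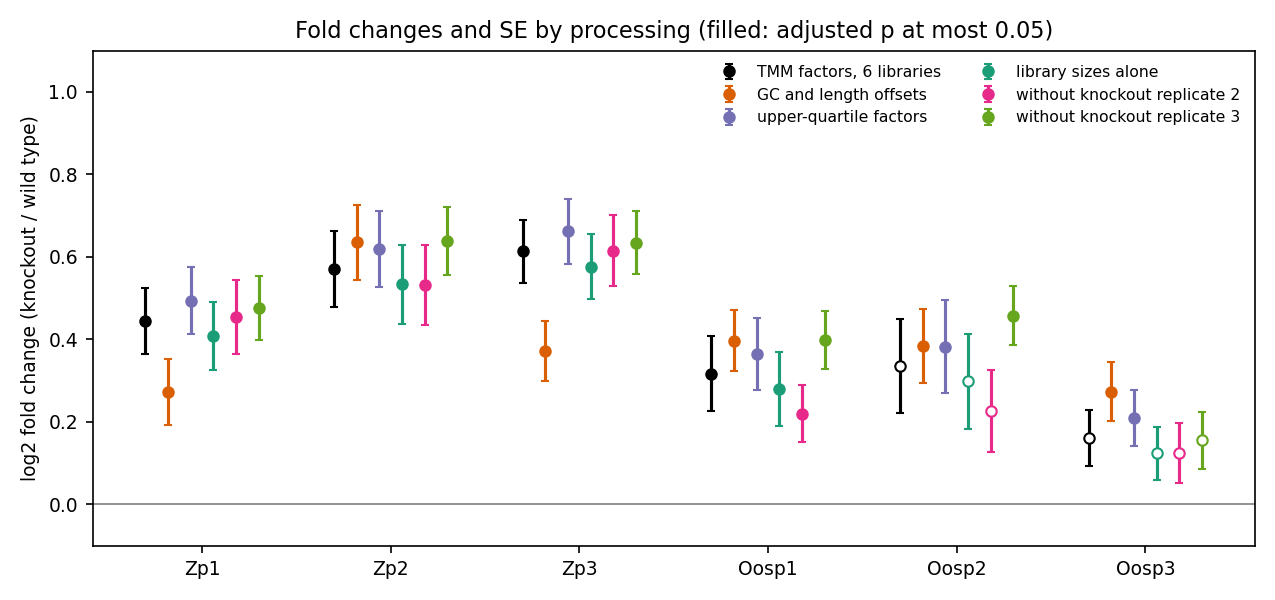
Log2 fold change of each gene (knockout over wild type, y axis) with its SE under 6 ways of processing, filled where the adjusted p was at most 0.05 and open where it was not. Zp1, Zp2, Zp3 and Oosp1 are filled throughout, Oosp2 and Oosp3 change between open and filled, and the GC and length correction moves Zp3 to 0.37 and Zp1 to 0.27. The fits without each wild-type library, in which Oosp1 did not pass, are not drawn.

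Set per length, the OOSP and zona mRNAs alternated in level. RPKM, the CPM per kilobase of transcript, used 1 GENCODE M21 transcript a gene. In wild type the order was Oosp1 at 2109 ± 17.5 RPKM, Zp3 at 992 ± 88.2, Oosp3 at 897 ± 16.8, Zp2 at 549 ± 52.4, Oosp2 at 428 ± 15.5 and Zp1 at 172 ± 14.5 (SD, n = 3). The ranges of neighbours in that order overlapped only for Zp3 (896 to 1069) and Oosp3 (884 to 916). In knockout the order was the same and no neighbours overlapped, with Oosp1 at 2627 ± 345, Zp3 at 1518 ± 42.3, Oosp3 at 1003 ± 67.0, Zp2 at 815 ± 70.4, Oosp2 at 539 ± 90.7 and Zp1 at 235 ± 10.4 RPKM. Oosp1 was the 7th most abundant of 16430 genes by RPKM in knockout and the 8th in wild type. Zp3 was the 19th in knockout and the 31st in wild type.

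**Figure D3:**
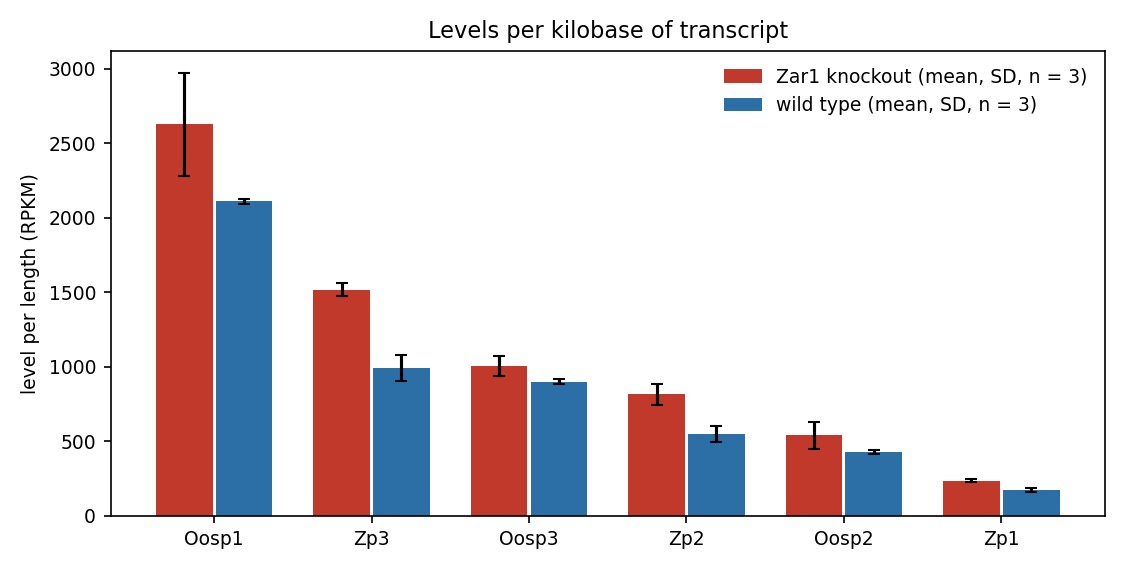
Level per kilobase of transcript (RPKM, y axis from 0) of the 6 genes, as mean and SD over 3 Zar1 knockout and 3 wild-type libraries. Oosp1 stands above all others in both groups, and the order from Oosp1 to Zp1 is the same in both.

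Within the zona genes the share of Zp1 was lower in knockout, and those of Zp2 and Zp3 differed by less than the spread between libraries in knockout or by about that spread. Zp3 made up 59.2 ± 1.22% of the summed zona RPKM in knockout and 57.9 ± 0.468% in wild type, Zp2 made up 31.7 ± 1.35% in knockout and 32.02 ± 0.632% in wild type, and Zp1 made up 9.14 ± 0.205% in knockout and 10.1 ± 0.170% in wild type. Ratios of counts within a library do not depend on the scaling between libraries, and 6 pairs were compared. Counts of Zp3 were 4.27, 4.402 and 4.42 times those of Zp1 in the knockout libraries, against 3.92, 3.84 and 3.88 times in the wild-type libraries. This was the only pair of the 6 whose groups did not overlap, with a difference of 0.17 ± 0.02 (SE) in the log2 ratio. Its exact two-sided permutation p was 0.1, the smallest that 3 against 3 libraries allow, and 0.6 when adjusted over the 6 pairs. Counts of Zp3 were 1.09, 1.05 and 1.18 times those of Zp2 in the knockout libraries, against 1.04, 1.09 and 1.09 times in the wild-type libraries, and these overlapped (exact p = 0.5). Counts of Zp2 were 3.91, 4.205 and 3.73 times those of Zp1 in the knockout libraries, against 3.77, 3.54 and 3.55 times in the wild-type libraries (exact p = 0.2).

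Within the OOSP genes, the ratio of Oosp2 to Oosp1 overlapped between the groups, and the ratios that involve Oosp3 varied most among knockout libraries. The log2 ratio of Oosp2 to Oosp1 was -2.74, -2.79 and -2.91 in the knockout libraries and -2.84, -2.86 and -2.77 in the wild-type libraries (exact permutation p = 0.9). The log2 ratio of Oosp3 to Oosp1 was -1.73, -1.76 and -1.46 in the knockout libraries, against -1.52, -1.46 and -1.53 in the wild-type libraries. Knockout replicates 1 and 2 were below all wild-type libraries, and knockout replicate 3 was within their range (exact permutation p = 0.3). The corresponding values for Oosp3 to Oosp2 were 1.01, 1.03 and 1.44 in the knockout libraries and 1.32, 1.40 and 1.25 in the wild-type libraries (exact permutation p = 0.4). The difference in the mean log2 ratio of Oosp3 to Oosp1 was -0.15, and it was -0.242 without knockout replicate 3 and -0.0957 without knockout replicate 2. For Oosp3 to Oosp2 it was -0.16, and it was -0.303 without knockout replicate 3, -0.0883 without knockout replicate 1 and -0.0968 without knockout replicate 2. None of the 6 pairs passed after adjustment (adjusted p between 0.6 and 0.9), a limit that this number of libraries sets.

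**Figure D4:**
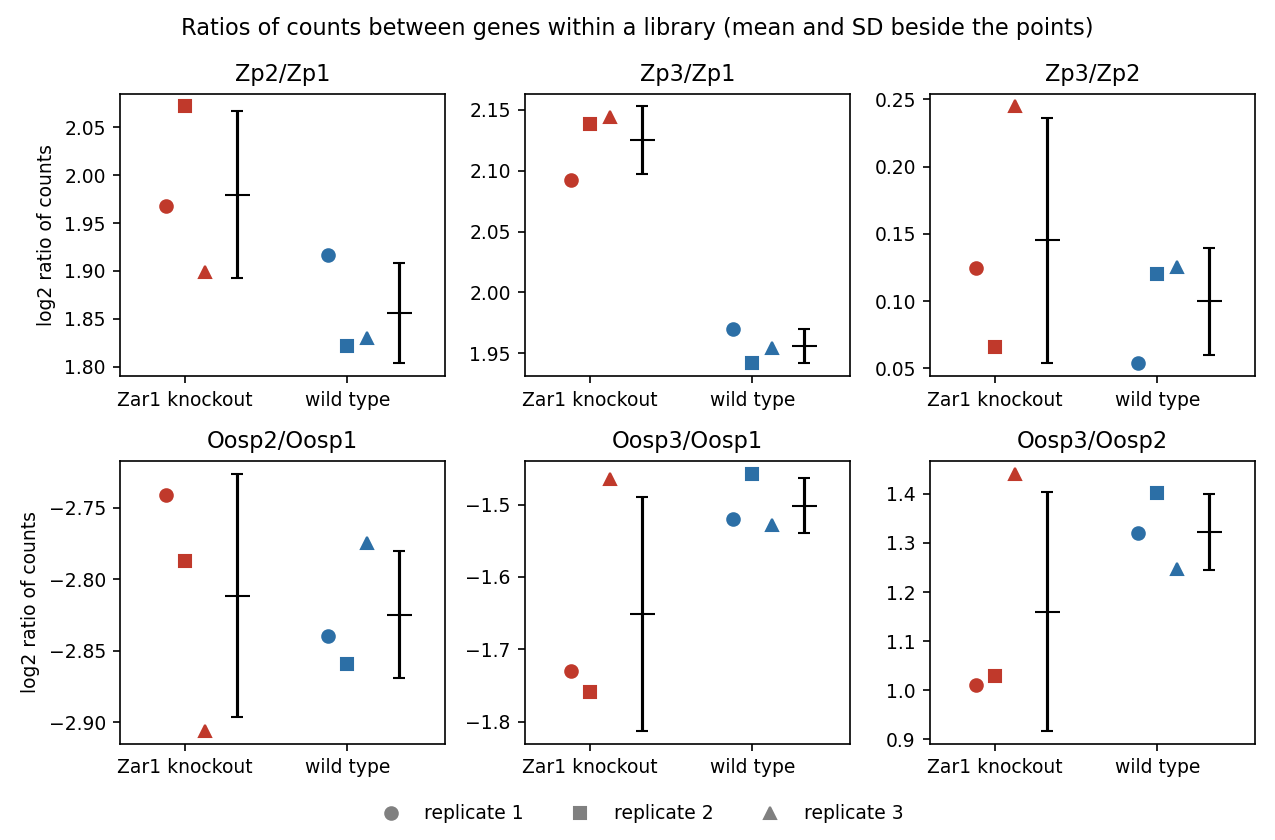
Log2 ratio of the counts of paired genes within each library (y axis, own scale in each panel) for 3 Zar1 knockout and 3 wild-type libraries, with mean and SD beside the points. Only the Zp3/Zp1 panel shows groups that do not overlap, and knockout replicate 3 lies apart from the other knockout libraries in the Oosp3/Oosp1 and Oosp3/Oosp2 panels.

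The zona mRNAs took 0.440%, 0.435% and 0.395% of all gene counts in the knockout libraries, against 0.305%, 0.258% and 0.311% in the wild-type libraries. The OOSP mRNAs took 0.361%, 0.413% and 0.330% in the knockout libraries, against 0.316%, 0.304% and 0.311% in the wild-type libraries. Zona counts were thus 1.22, 1.05 and 1.20 times the OOSP counts in the knockout libraries and 0.966, 0.847 and 1.00 times in the wild-type libraries. Every knockout library was higher in each of these measures. They carry no correction for GC content and length. With that correction the log2 fold changes of Zp2, Zp3 and Zp1 were 0.64, 0.37 and 0.27. Those of Oosp1, Oosp2 and Oosp3 were 0.40, 0.38 and 0.27, so of the zona genes only Zp2 stood above Oosp1 and Oosp2. The OOSP share was higher by 0.0578 percentage points in knockout on average, and by 0.0355 points without knockout replicate 2. These shares are sums over genes chosen with earlier results known and carry no test.

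The 3' ends of these mRNAs were short in the annotation. The 3' UTR, the stretch after the stop codon to which regulators of stored mRNA bind, was 13 bases in Zp3, 34 in Zp1, 138 in Oosp2, 173 in Zp2, 175 in Oosp3 and 230 in Oosp1, against a median of 1114 over 12852 tested genes with one. Only 0.109% of those genes had a shorter one than Zp3, and 12.7% had a shorter one than Oosp1. The polyadenylation signal AATAAA began 18 bases from the end of the Zp3 transcript, so it overlapped the stop codon. AATAAA also began 26 bases from the end in Zp1 and Oosp2, 18 in Zp2 and 19 in Oosp3, Oosp1 had none in its last 40 bases, and AATAAA or ATTAAA was within the last 40 bases in 69.9% of coding genes. TTTTAT and TTTTAAT, forms of the cytoplasmic polyadenylation element to which CPEB1 binds, were searched on the transcribed strand. The 3' UTRs of Zp1, Zp2, Zp3 and Oosp2 held neither, that of Oosp1 held TTTTAAT 1 time and that of Oosp3 held TTTTAT 3 times and TTTTAAT 2 times. Among all those genes 57.3% held TTTTAT and 32.1% held TTTTAAT. Their 3' UTRs were mostly far longer, and these shares are not matched for length. Oosp3, with the most such matches, had the smallest fold change of the set in the main fit. With GC and length offsets the log2 fold changes of Oosp3 and of Zp1, which held neither, were both 0.27. This is a description of 6 genes.

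Oosp2, Oosp1 and Oosp3 are neighbours on chromosome 19, on which Zp1 also lies, while Zp2 is on chromosome 7 and Zp3 on chromosome 5. The coding genes beside them were read as a description of position. Next to Zp2, Anks4b had 28.6 ± 1.40 CPM in knockout and 57.1 ± 2.40 CPM in wild type and fell (log2 fold change -0.997 ± 0.09, edgeR adjusted p = 9.1e-05), and Tmem159 on the other side had 5.59 ± 1.66 CPM in knockout and 5.83 ± 0.523 CPM in wild type. Beside Zp3, Ssc4d rose (log2 fold change 0.84 ± 0.16, edgeR adjusted p = 0.00457) and Dtx2 fell (-0.26 ± 0.08, edgeR adjusted p = 0.0436). The Dtx2 call was lost under 6 of 16 alternatives, among them those that left out replicate 1 or 3 of either genotype (edgeR adjusted p between 0.0751 and 0.136), and the GC and length correction moved it to -0.55 and Ssc4d to 0.54. Prpf19, next to Zp1, had a log2 fold change of 0.46 ± 0.15 (edgeR adjusted p = 0.0431), and missed the threshold under 8 of 16 alternatives, among them without each library but wild-type replicate 2 (edgeR adjusted p between 0.0546 and 0.154). Ms4a3, next to Oosp2, had 165 counts over the knockout libraries and 62 over the wild-type libraries, and rose (log2 fold change 1.40 ± 0.34, edgeR adjusted p = 0.0124). With wild-type replicate 2 left out its edgeR adjusted p was 0.0505. Of the neighbours named, Anks4b and Ssc4d passed under all 16 alternatives, the one lower and the other higher in knockout.

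Of 9 listed activators of zona and oocyte genes, 8 were tested, 4 rose, 1 fell and 3 did not pass, with a median log2 fold change of 0.29. Among all tested genes 33.4% were called, 14.9% as higher and 18.5% as lower. The counts of this list and of those below stand beside that share. Nobox, a homeobox activator of oocyte genes, had 414 ± 18.5 CPM in knockout and 155 ± 8.15 CPM in wild type (log2 fold change 1.41 ± 0.07, edgeR adjusted p = 1.15e-05). Figla had 23.6 ± 0.857 CPM in knockout and 12.6 ± 2.13 CPM in wild type (0.91 ± 0.15, edgeR adjusted p = 0.00183). The member that fell was Tcf4, a helix-loop-helix factor, with 0.728 ± 0.143 CPM in knockout and 6.41 ± 3.07 CPM in wild type (-3.14 ± 0.39, edgeR adjusted p = 0.000491). These 3 calls held under all 16 alternatives.

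Genes that act on the zona proteins after translation were called in both directions, as were tested genes in general. Of 9 listed proprotein convertases and genes of ZP2 cleavage, 6 were tested, 2 rose and 2 fell. Fetub, the ovastacin inhibitor fetuin B, had 67.6 ± 11.1 CPM in knockout and 43.7 ± 8.54 CPM in wild type (log2 fold change 0.63 ± 0.16, edgeR adjusted p = 0.0164). Astl, which encodes ovastacin, had 289 ± 12.3 CPM in knockout and 244 ± 16.9 CPM in wild type (0.24 ± 0.08, edgeR adjusted p = 0.0381), and Pcsk5, a proprotein convertase, had 3.92 ± 1.28 CPM in knockout and 7.21 ± 0.795 CPM in wild type (-0.88 ± 0.26, edgeR adjusted p = 0.0313). No gene of this list passed without wild-type replicate 2 or 3, 1 passed without wild-type replicate 1 and 2 passed without knockout replicate 1. Astl also missed the threshold under 8 of 16 alternatives.

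Of 32 listed enzymes that build N- and O-linked glycans, 28 were tested, 4 rose, 7 fell and 17 did not pass, with a median of -0.04. Mgat1, which opens the way to complex N-glycans, had 2.39 ± 0.882 CPM in knockout and 12.6 ± 1.22 CPM in wild type (log2 fold change -2.40 ± 0.26, edgeR adjusted p = 0.000233). Man2a1, the Golgi mannosidase that acts after it, had 2.799 ± 0.768 CPM in knockout and 12.5 ± 1.36 CPM in wild type (-2.16 ± 0.23, edgeR adjusted p = 0.000224). Galnt1, which starts O-glycans, had 22.6 ± 2.42 CPM in knockout and 47.2 ± 0.830 CPM in wild type (-1.06 ± 0.11, edgeR adjusted p = 0.000165). Each of these falls held under all 16 alternatives, while 6 genes of the list passed without wild-type replicate 2 and 7 without wild-type replicate 3.

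Of 13 other genes with a ZP domain or of the PLAC1 family, 8 were tested, 2 rose, 1 fell and 5 did not pass. Umodl1, a ZP-domain gene, had 1640 ± 105 CPM in knockout and 1134 ± 15.4 CPM in wild type (log2 fold change 0.53 ± 0.07, edgeR adjusted p = 0.000481). Tgfbr3, the ZP-domain co-receptor betaglycan, had 21.5 ± 4.25 CPM in knockout and 45.6 ± 0.958 CPM in wild type (-1.08 ± 0.14, edgeR adjusted p = 0.000656). Zp4-ps, the mouse remnant of the fourth zona gene, had 10.1 ± 1.54 CPM in knockout and 6.97 ± 0.810 CPM in wild type (0.54 ± 0.18, edgeR adjusted p = 0.0463), and lost its call under 10 of 16 alternatives. Plac1 had 2.41 ± 0.697 CPM in knockout and 2.54 ± 0.259 CPM in wild type and did not pass.

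Of 4 other oocyte-secreted ligands, 1 rose, 1 fell and 2 did not pass. Fgf8 had 44.4 ± 5.30 CPM in knockout and 27.8 ± 2.86 CPM in wild type (log2 fold change 0.68 ± 0.12, edgeR adjusted p = 0.00325), a call that ended under the GC and length correction (0.15, edgeR adjusted p = 0.366). Bmp15 had 2478 ± 292 CPM in knockout and 3101 ± 221 CPM in wild type (-0.32 ± 0.09, edgeR adjusted p = 0.0281), and missed the threshold under 6 of 16 alternatives, among them the GC and length correction (-0.13). Only 1 of these 4 genes passed when wild-type replicate 2 or 3 was left out, and likewise for knockout replicates 1 and 2.

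Among the oocyte markers, 2 of 8 rose, 2 fell and 4 did not pass, with a median of 0.01. Gdf9 and Bmp15 are in this list and among the ligands, so the fall of Bmp15 is counted in both. Npm2, an oocyte histone chaperone, had a log2 fold change of 0.35 ± 0.09 (edgeR adjusted p = 0.0131) and Dazl, a germ cell RNA-binding protein, of -0.22 ± 0.07 (edgeR adjusted p = 0.0286), a sign that turned under the GC and length correction (0.04). Npm2 missed the threshold under that correction (0.19, edgeR adjusted p = 0.0974) and without wild-type replicate 3 (edgeR adjusted p = 0.0631). Leaving out any of those same 4 libraries left 1 of these 8 markers past the threshold. Of the 19 somatic markers 10 were tested, 1 rose (Has2, 1.40 ± 0.30) and 2 fell (Kitl, -2.33 ± 0.39, and Pdgfra, -3.74 ± 0.77), with edgeR adjusted p of 0.00712, 0.00222 and 0.00601. Kitl had 0.796 ± 0.472 CPM in knockout and 4.02 ± 0.320 CPM in wild type. Pdgfra was near the floor, with 5 counts over the knockout libraries and 71 over the wild-type libraries.

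**Figure D5:**
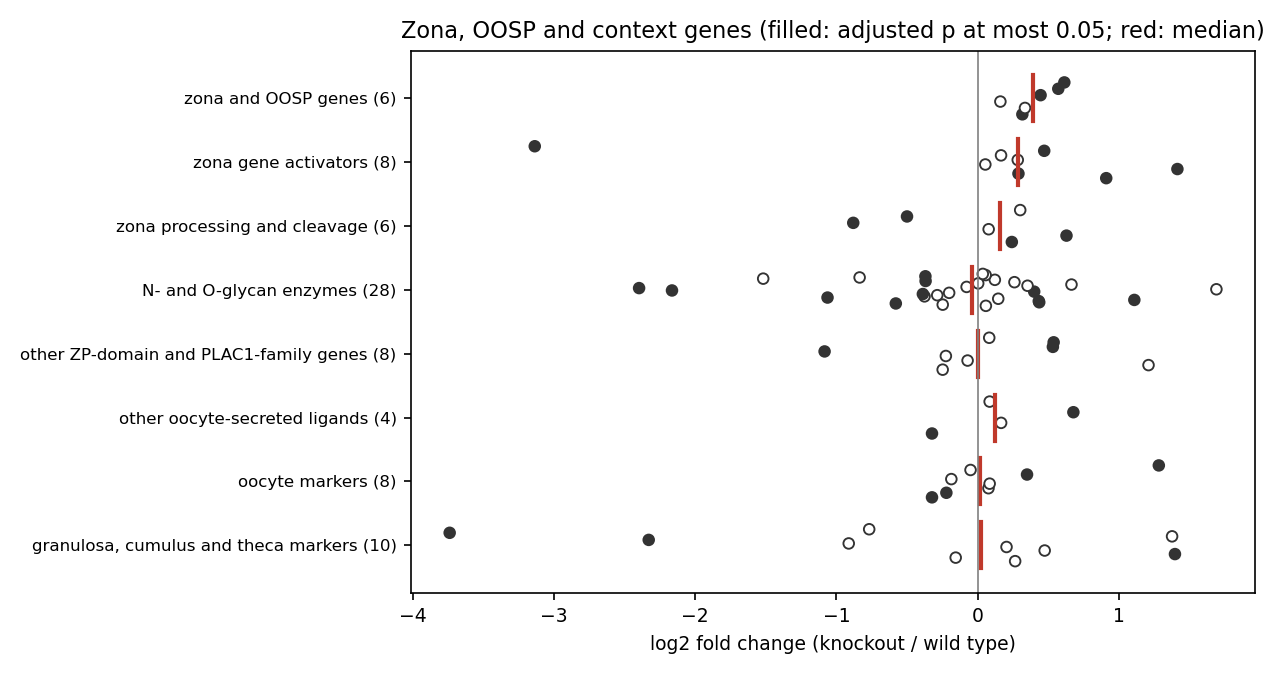
Log2 fold change (knockout over wild type, x axis) of each tested gene of the zona and OOSP set and of 7 context lists, with the number tested in brackets, filled points for an adjusted p of at most 0.05 and red bars for list medians. The 6 zona and OOSP points all lie right of 0 and within 0.16 to 0.61, while the context lists hold points on both sides.

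The genes whose profiles over the 6 libraries lay nearest to each member were found among 2202 genes with a mean of at least 100 CPM, by Euclidean distance between centred log2 CPM. Other members, pseudogenes and genes named only as predicted models or clones were passed over. The profile nearest to Zp3 was Padi6, a maternal gene of oocyte cytoplasmic lattices, at a distance of 0.0732, with 3214 CPM in knockout and 2077 CPM in wild type. Naa16 (0.139) and Miox (0.141) followed. For Zp2 they were Msl1 (0.101), Slc25a48 (0.113) and the maternal gene Nlrp5 (0.127), and for Zp1 they were Tcf25 (0.0891), Hspa8 (0.0993) and Lrrc42 (0.105). Oosp1 lay nearest to Gle1 (0.0821), Dap3 (0.0868) and Ociad1 (0.102), Oosp2 to Ubl5 (0.0523), Faf1 (0.0710) and Zcrb1 (0.0792), and Oosp3 to Atxn2l (0.0621), Samhd1 (0.0669) and Gja4 (0.0733). Within the set the nearest pairs were Oosp1 with Oosp2 (0.136) and Zp2 with Zp3 (0.151), and the farthest was Zp3 with Oosp3 (0.625). With no gene passed over, Zp3 was the 6th nearest to Zp2, and Oosp2 was the 16th nearest to Oosp1. These distances take in both the genotype difference and the variation among libraries of a genotype. Oosp1 and Oosp2, for instance, differed by only 0.0133 between genotypes in their log2 ratio. With 3 libraries in each group the distances are a description.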

How the data were processed

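PolyA RNA of 10 GV oocytes per library was prepared using a QIAseq FX single-cell library kit, per the labels' protocols. For each library the authors deposited a table of raw gene counts. The submitters' processing notes name the build mm39 and the tools HTSeq 0.13.5, STAR 2.7.8a, cutadapt 2.8 and bcl2fastq 2.20.0.422. Neither the annotation release nor the strand setting is given in the sources used here, so counts of overlapping genes are uncertain. Of 53700 gene rows 52093 had a symbol. Gene coordinates on mm39 are not used here, and transcript lengths, GC content and 3' UTRs are from GENCODE M21 (GRCm38).

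The main test was edgeR's quasi-likelihood test (edgeR 4.0.16, R 4.3.3), two-sided, on counts with TMM factors after filterByExpr, with a design holding genotype alone and a threshold of 0.05 over 16473 genes. SE is the absolute log2 fold change over the root of F. Ratios were tested with exact permutation in scipy 1.17.1. The steps were tested on simulated data. The ratio of chi-square to its degrees of freedom between libraries of a genotype was at least 14.2, so none was a duplicate. Gene rows with no symbol held at most 0.256% of counts.

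The genes, lists and tests were chosen with earlier results of these data known. Context genes named are up to 3 called members of each list with the smallest adjusted p. Neighbours on the chromosome and Plac1 were added by position and family. The alternatives tried were upper-quartile, RLE or no scaling factors, 2 other filters on counts, DESeq2 1.42.0, limma-voom (limma 3.58.1), the replicate number as a block, GC and length offsets (99.7% of tested genes), no mitochondrial genome, an adjusted p of 0.01 and each library left out.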

Additional observations from a re-analysis of the deposited data

How the results depend on the processing

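The rises of Zp1, Zp2 and Zp3 kept their direction and passed under all 10 alternatives of processing and without each library. Their log2 fold changes lay between 0.27 and 0.49, 0.53 and 0.64, and 0.37 and 0.66 across those settings, and between 0.38 and 0.50, 0.49 and 0.64, and 0.54 and 0.66 without single libraries. Oosp1 passed under all 10 alternatives, and without single libraries it lay between 0.22 and 0.40. Its call was lost without wild-type replicate 1, 2 or 3 (edgeR adjusted p = 0.0743, 0.0813 and 0.0874). Oosp2 lay between 0.23 and 0.46 without single libraries and passed under 7 of the 10, with 0.35 under RLE factors, 0.38 under upper-quartile factors, 0.32 with no filter, 0.34 with at least 50 counts in 3 libraries, 0.35 in DESeq2, 0.38 with GC and length offsets and 0.34 without the mitochondrial genome. Oosp3 passed with upper-quartile factors (0.21) and with GC and length offsets (0.27), and lay between 0.12 and 0.22 without single libraries. The cause of these changes was not tested.

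The number of genes called was 3032 at an adjusted p of 0.01, with 1171 higher and 1861 lower, against 5499. At that threshold 3 of the 6 genes, 0 of the zona processing list, 6 glycan enzymes, 1 secreted ligand and 0 oocyte markers passed. The counts at 0.01 are lower by construction. Under GC and length offsets 0 secreted ligands and 1 oocyte marker passed, and 2 oocyte markers passed with upper-quartile factors. Without single libraries the counts were 0 to 3 for zona processing, 6 to 12 for glycan enzymes, 1 to 3 for ligands, 1 to 5 for oocyte markers, and 1541 (without wild-type replicate 3) to 2509 for all higher genes. The differences in log2 ratio lay between -0.00429 and 0.0851 for Zp3/Zp2 and between -0.0219 and 0.0605 for Oosp2/Oosp1 and turned sign, and those for Oosp3/Oosp1 (-0.242 to -0.0957) and Oosp3/Oosp2 (-0.303 to -0.0883) did not. The difference in the OOSP share lay between 0.0355 and 0.0766 percentage points. Under GC and length offsets Dazl was at 0.0383 and Gja4 at -0.16. Without single libraries Tmem159 lay between -0.198 and 0.176, and was at 0.0067 without wild-type replicate 2.

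No pairing by replicate number was seen, since deviations of libraries with the same number correlated at -0.00898, -0.042 and -0.0252. These values do not tell whether pools with the same number were prepared together. With the replicate number as a block, 4838 genes were called, the same 4 of the 6 genes passed, 2 oocyte markers passed, and the log2 fold change was 0.62 for Zp3, 0.57 for Zp2, 0.45 for Zp1 and 0.31 for Oosp1.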
